A study of Mus musculus with 15 samples.

Results

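The genes described here encode subunits of Polycomb repressive complex 2 (PRC2), the histone methyltransferase complex that contains the target of the drug GSK343. They were chosen by gene symbol, as genes known to encode PRC2, and are the catalytic subunits *Ezh2* and *Ezh1*, the core subunits *Eed*, *Suz12*, *Rbbp4*, and *Rbbp7*, and the accessory subunits *Jarid2*, *Mtf2*, *Phf19*, and *Aebp2*. All 10 were found among the 21669 genes with a symbol, and all 10 passed the filter on expression that left 11299 genes for testing. The RNA-seq libraries came from young adult female C57BL/6J mice and formed 5 groups of 3. Naive B cells (nB) are splenic B cells left after depletion of CD43+ cells and were neither stimulated nor treated. The cells of the other groups were grown ex vivo for 3 days with lipopolysaccharide (LPS), IL2, and IL5, and were then sorted as B220+GL7+CD138- activated B cells (actB) or CD138+ plasmablasts (Pb). Each was taken from cultures with the solvent DMSO or with the EZH2 inhibitor GSK343. For Pb grown with GSK343 the labels name IL6, and for all other cultured libraries IL5. The study's methods name IL5 for the cultures with LPS and do not name IL6. The study describes the libraries as 3 biological replicates of each cell type, and their titles number the replicates in the same way in every group. The numbers of the cultured libraries were taken to pair the samples. Whether the libraries of a group came from separate mice is not stated in the labels, so that p-values measure the spread between these libraries.

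PRC2 places methyl groups on lysine 27 of histone H3, and its trimethyl form, H3K27me3, marks repressed genes. EZH2 or EZH1 carries the catalytic SET domain, and neither is active without EED, which binds H3K27me3 and stimulates the enzyme, and SUZ12, which holds the complex together. RBBP4 and RBBP7 are histone-binding proteins that are also parts of other chromatin complexes. The accessory proteins define 2 forms of the complex. MTF2 and PHF19, Polycomb-like proteins that bind DNA and H3K36 methyl marks, belong to PRC2.1, and JARID2 and AEBP2 belong to PRC2.2. In B cells EZH2 is known for its abundance in dividing cells of the germinal centre, and EZH1 for its presence in resting cells. GSK343 competes with the methyl donor at the catalytic site and acts on the protein, so that the transcripts described here are not its direct target.

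Positions are those of GENCODE vM1 in mm9. *Ezh2* lies on chromosome 6 from 47480273 to 47545340 and *Ezh1* on chromosome 11 from 101052429 to 101087777. *Eed* lies on chromosome 7 from 97103166 to 97129493, *Suz12* on chromosome 11 from 79806608 to 79847625, *Rbbp4* on chromosome 4 from 128984344 to 129012614, and *Rbbp7* on chromosome X from 159198334 to 159217024. *Jarid2* lies on chromosome 13 from 44824843 to 45017012, *Mtf2* on chromosome 5 from 108494693 to 108538023, *Phf19* on chromosome 2 from 34749277 to 34769546, and *Aebp2* on chromosome 6 from 140570970 to 140626993. Exons of other genes on the opposite strand overlap those of 5 members, over 2.81% of exonic bases in *Ezh2* and 3.60% in *Suz12*, which face long noncoding RNA genes, 5.98% in *Rbbp7* (*Txlng*), 7.51% in *Mtf2* (*Tmed5*), and 8.94% and 9.10% in *Rbbp4* (*Sync* and a noncoding RNA gene). Use of strand in counting is not stated, so that reads of such pairs cannot be told apart there. For *Rbbp7*, a copy elsewhere on chromosome X matches 77.7% of its longest transcript at 96.7% identity. Shorter copies match 15.6% of that of *Suz12* at 96.5% and 12.2% of that of *Mtf2* at 96.2%. Copies of lower identity exist as well, among them 1 over 89.8% of *Suz12* at 86.6%. How reads shared with such copies were counted is not known.

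Depth, library identity, and cell markers bear on all results that follow. The libraries held 19421830 to 26307413 reads assigned to genes, and the members 304 to 10384 reads in each. Levels are given as RPKM, which is the deposited RPM over the length of the gene in kilobases. Levels, ranks, and ratios compared between genes thus depend on these lengths, which for some members exceed the longest coding transcript. Changes of 1 gene between groups do not. Values of nB replicate 1 and nB replicate 2 differed by less than the sampling noise, with a chi-square per degree of freedom of 0.00947 where all other pairs within a group gave at least 3.57, and were counted as 1 sample, which leaves n = 2 for nB. In all 4 cultured groups the replicate 2 library stood apart, with 7.62 to 29.7 against the other libraries of its group, where these gave 3.57 to 6.07 between themselves. The libraries labelled nB and Pb bore the markers of these cells. The summed RPKM of 7 naive B cell genes was 2259 to 2341 in nB and 219 to 242 in Pb with DMSO, and that of 5 plasmablast genes was 214 to 231 in nB and 3065 to 3215 in Pb with DMSO. That of 4 activated B cell genes was 207 to 268 in actB with DMSO, 89.0 to 107 in nB, and 40.8 to 43.6 in Pb with DMSO. These 4 were mixed, as limma called 2 of them higher and 1 lower in actB than in nB. Of all genes 40.9% were called higher and 36.3% lower.

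*Ezh2* was the member that rose most on activation, and *Ezh1*, the alternative catalytic subunit, fell. *Ezh2* stood at 13.8 and 14.3 RPKM in the nB libraries, at 102.8, 94.3, and 106.5 in actB with DMSO (replicates 1 to 3), and at 80.3, 71.2, and 81.4 in Pb with DMSO. The lowest actB library thus held more *Ezh2* than the highest Pb library, and both were far above nB. *Ezh1* stood at 18.98 and 19.86 RPKM in nB, at 6.41, 7.78, and 6.36 in actB with DMSO, and at 5.96, 6.66, and 6.12 in Pb with DMSO. Its nB values were above all cultured ones, while actB and Pb overlapped.

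Differences between groups were tested with limma on log2(RPKM + 0.25) over the 11299 genes, with a two-sided p adjusted by the Benjamini-Hochberg method over all of them and 0.05 as the threshold. From nB to actB with DMSO, the log2 fold change of *Ezh2* was 2.83 (standard error 0.089, adjusted p = 2.96e-11 from limma), a 7.09-fold rise, and 293 of the 11299 genes had a larger one. That of *Ezh1* was -1.48 (standard error 0.11, adjusted p = 5.87e-08 from limma), a level 2.78-fold lower. From actB to Pb, *Ezh2* fell by 0.38 on the log2 scale (standard error 0.080, adjusted p = 9.35e-04 from limma), and *Ezh1*, at -0.12, did not pass the threshold (adjusted p = 0.267). In Pb, *Ezh2* still stood 5.45-fold above nB and *Ezh1* 3.03-fold below it. In these bulk samples, fewer cells of a type and less RNA per cell cannot be told apart.

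**Figure D1:**
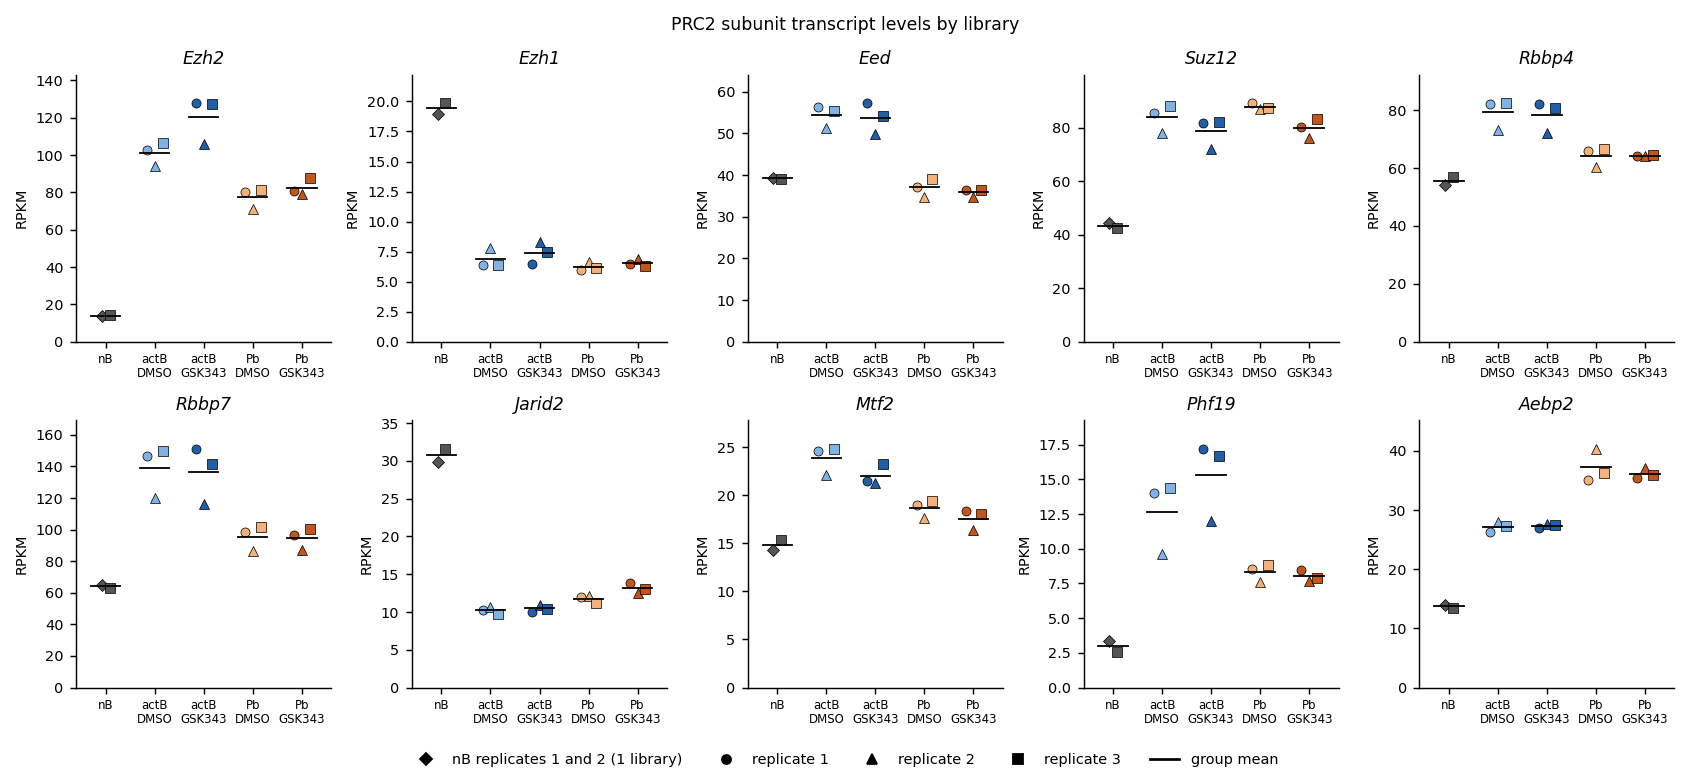
Transcript level (RPKM, linear axis from 0) of the 10 PRC2 subunits in each of 14 libraries, by group. Symbols give the replicate number, diamonds are the merged nB library of replicates 1 and 2, and lines are group means. *Ezh2* rises from 14.03 RPKM in nB to 101.2 in actB with DMSO, while *Ezh1* and *Jarid2* are highest in nB.

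Which catalytic subunit was the more abundant transcript differed between nB and the cultured cells. The ratio of *Ezh1* to *Ezh2* RPKM was 1.38 and 1.39 in the nB libraries, and ranged from 0.0597 to 0.0825 in actB with DMSO and from 0.0742 to 0.0935 in Pb with DMSO. In RPKM, *Ezh1* thus exceeded *Ezh2* in nB, and in actB *Ezh2* was 14.8 times *Ezh1* by the geometric mean. That factor depends on the deposited lengths, 3088 bases for *Ezh2* and 6317 for *Ezh1*. Their longest coding transcripts hold 2652 and 4207 bases. The ratio in actB was 20.5-fold lower than in nB, a comparison with n = 2 against 3 that was not tested. Between Pb and actB with DMSO the ratios overlapped (exact permutation test, two-sided p = 0.3, where 3 libraries against 3 cannot give less than 0.1). Within replicate numbers the ratio was higher in Pb in 3 of 3 pairs, by 0.25, 0.18, and 0.33 on the log2 scale, and the exact paired permutation test gave its smallest possible two-sided p of 0.25.

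Upstream sequences of the catalytic subunits, which changed in opposite directions from nB to actB, and of *Phf19*, the member with the second largest rise there, are shown. RefSeq promoters (GRCm38.p6, 250 bases before the start) were matched to mm9 without a mismatch, and only the stretch that no GENCODE vM1 exon covers is given, 5′ to 3′ on the strand of the gene. They lie at chr6:47545030-47545182 for *Ezh2*, chr11:101087778-101088027 for *Ezh1*, and chr2:34769547-34769735 for *Phf19*, all on the minus strand. The start is that of RefSeq. In GENCODE vM1, *Ezh2* and *Phf19* begin further upstream, at 47545340 and 34769546, so that the stretch of *Ezh2* lies within its GENCODE gene, outside exons. Capitals mark matches to CCAAT, to the E2F motif (TTTCCCGC, TTTCGCGC, TTTGCCGC, or TTTGGCGC), and to the cell cycle homology region motif CHR (TTTGAA or TTCGAA), each searched on both strands.
Ezh2: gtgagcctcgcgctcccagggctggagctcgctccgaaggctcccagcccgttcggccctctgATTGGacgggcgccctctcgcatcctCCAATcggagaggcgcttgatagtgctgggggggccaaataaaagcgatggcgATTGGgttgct
Ezh1: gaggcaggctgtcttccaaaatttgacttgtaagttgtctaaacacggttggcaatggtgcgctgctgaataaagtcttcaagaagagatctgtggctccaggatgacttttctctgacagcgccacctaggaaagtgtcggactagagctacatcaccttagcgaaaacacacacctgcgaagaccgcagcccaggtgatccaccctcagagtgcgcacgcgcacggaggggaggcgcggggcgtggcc
Phf19: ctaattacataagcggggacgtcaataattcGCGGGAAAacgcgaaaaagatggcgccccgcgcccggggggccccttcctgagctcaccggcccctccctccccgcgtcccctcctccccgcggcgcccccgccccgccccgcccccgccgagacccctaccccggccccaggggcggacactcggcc

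In the 250 bases before the RefSeq start, *Ezh2* held 3 matches to CCAAT, *Phf19* 1 match to the E2F motif, 208 to 201 bases before that start, and *Ezh1* no match to any of the 3 motifs. Over the 14 RefSeq promoters of the 10 members, 7 held CCAAT, 4 held CHR, and 2 held the E2F motif, the other being that of *Suz12*. Of 32851 promoters of the same length, 33.8% held CCAAT, 17.1% held CHR, and 1.86% held the E2F motif. A match describes these letters only, and binding was not measured here.

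Of the core scaffold subunits, *Suz12* rose in both cultured cell types, whereas *Eed* rose in actB and was not called in Pb against nB. *Suz12* stood at 44.5 and 42.5 RPKM in nB, at 85.5, 78.2, and 88.1 in actB with DMSO, and at 89.3, 87.1, and 87.6 in Pb with DMSO. Its cultured values lay well above nB and overlapped between actB and Pb. The log2 fold change of *Suz12* from nB was 0.94 in actB (adjusted p = 5.91e-08 from limma) and 1.01 in Pb (adjusted p = 1.84e-08), and that between Pb and actB was 0.07 (adjusted p = 0.326). *Eed* stood at 39.4 and 39.1 RPKM in nB, at 56.4, 51.4, and 55.3 in actB with DMSO, and at 37.1, 34.8, and 39.2 in Pb with DMSO. The Pb values of *Eed* thus reached the range of nB and lay below all of actB. *Eed* rose by 0.47 on the log2 scale from nB to actB (adjusted p = 3.42e-05 from limma), fell by 0.55 from actB to Pb (adjusted p = 3.86e-06), and in Pb differed from nB by -0.083 (standard error 0.067, adjusted p = 0.265 from limma).

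Both histone-binding subunits rose in actB and were lower in Pb, *Rbbp7* by more than *Rbbp4*. *Rbbp7* was the most abundant member in every group, with a mean of 64.0 ± 1.29 RPKM (SD, n = 2) in nB, 138.8 ± 16.5 (n = 3) in actB with DMSO, and 95.5 ± 8.15 (n = 3) in Pb with DMSO. It rose by 1.11 on the log2 scale from nB to actB (adjusted p = 2.90e-06 from limma) and fell by 0.54 from actB to Pb (adjusted p = 7.17e-04). *Rbbp4* had means of 55.5, 79.3, and 64.3 RPKM in these groups and changed less, by 0.51 from nB to actB (adjusted p = 2.67e-05) and by -0.30 from actB to Pb (adjusted p = 0.00102). The ratio of *Rbbp7* to *Rbbp4* was 1.11 to 1.197 in nB, 1.64 to 1.82 in actB with DMSO, and 1.43 to 1.53 in Pb with DMSO, and these ranges did not overlap. For Pb against actB, the exact permutation test gave its smallest possible two-sided p of 0.1.

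**Figure D2:**
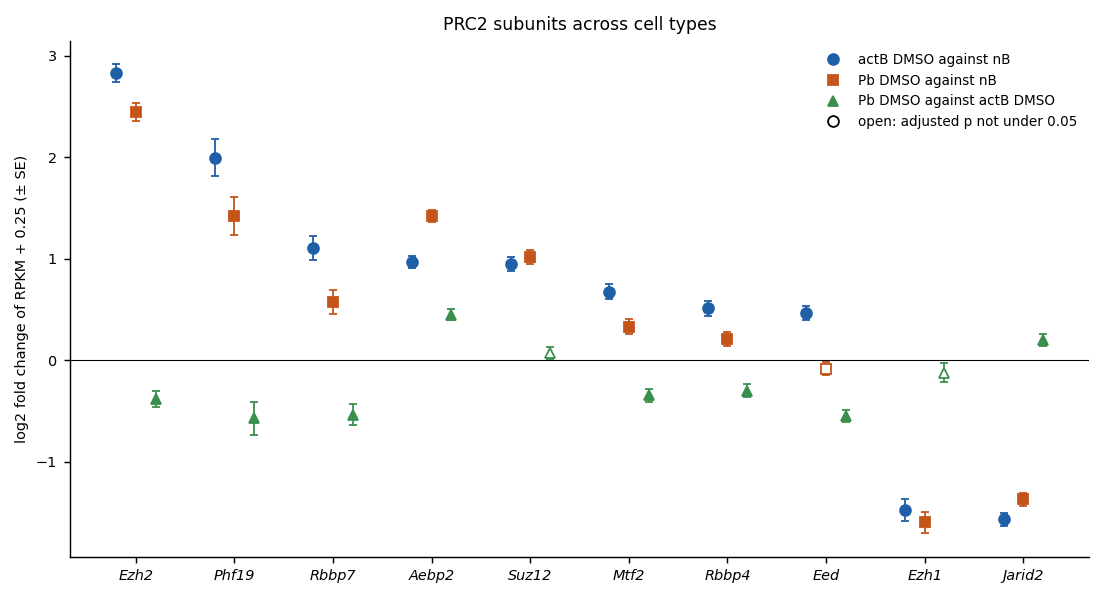
Log2 fold change of RPKM + 0.25 with its standard error (limma) for each PRC2 subunit in 3 comparisons of DMSO-cultured and naive cells, ordered by the change from nB to actB. Open symbols did not pass an adjusted p of 0.05. *Ezh2* and *Phf19* lead at 2.83 and 1.99 for actB against nB, and *Ezh1* and *Jarid2* lie below 0 at -1.48 and -1.57.

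Among the subunits of PRC2.1, *Phf19* rose from the lowest level of all members. It stood at 3.37 and 2.57 RPKM in nB (400 and 304 reads), at 14.004, 9.63, and 14.4 in actB with DMSO, and at 8.504, 7.62, and 8.82 in Pb with DMSO. The groups did not overlap, although actB replicate 2 lay closer to Pb than to the other actB libraries. The log2 fold change of *Phf19* was 1.99 from nB to actB (standard error 0.18, adjusted p = 5.82e-07 from limma), a 3.98-fold rise, and -0.57 from actB to Pb (standard error 0.16, adjusted p = 0.00751). *Mtf2*, its paralogue, averaged 14.8 ± 0.670 RPKM in nB (SD, n = 2), 23.9 ± 1.52 in actB with DMSO (n = 3), and 18.7 ± 0.897 in Pb with DMSO (n = 3). The log2 fold change of *Mtf2* was 0.68 from nB to actB (adjusted p = 2.91e-06 from limma) and -0.35 from actB to Pb (adjusted p = 4.63e-04). *Mtf2* remained the more abundant of the pair in every group, with a geometric mean ratio of *Phf19* to *Mtf2* of 0.199 in nB, 0.524 in actB with DMSO, and 0.444 in Pb with DMSO.

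The PRC2.2 subunits changed in opposite directions from nB to actB, and both were higher in Pb than in actB. *Jarid2*, which is related to histone demethylases but lacks their activity, stood at 29.9 and 31.6 RPKM in nB, at 10.3, 10.6, and 9.75 in actB with DMSO, and at 11.97, 12.1, and 11.1 in Pb with DMSO. *Aebp2*, a zinc finger protein that stabilizes the complex, stood at 14.02 and 13.5 RPKM in nB, at 26.3, 28.0, and 27.2 in actB with DMSO, and at 35.1, 40.3, and 36.3 in Pb with DMSO. The groups did not overlap for either gene. *Jarid2* fell by 1.57 on the log2 scale from nB to actB (standard error 0.066, adjusted p = 3.76e-10 from limma) and was higher by 0.20 in Pb than in actB (adjusted p = 0.0101). *Aebp2* rose by 0.97 from nB to actB (adjusted p = 1.03e-08 from limma) and by a further 0.45 to Pb (adjusted p = 7.20e-06), and was the member that rose most from actB to Pb. The ratio of *Jarid2* to *Ezh2* RPKM was 2.19 in nB, 0.101 in actB with DMSO, and 0.151 in Pb with DMSO by the geometric mean. The ratios of Pb lay above those of actB, with an exact permutation p at its two-sided minimum of 0.1.

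**Figure D3:**
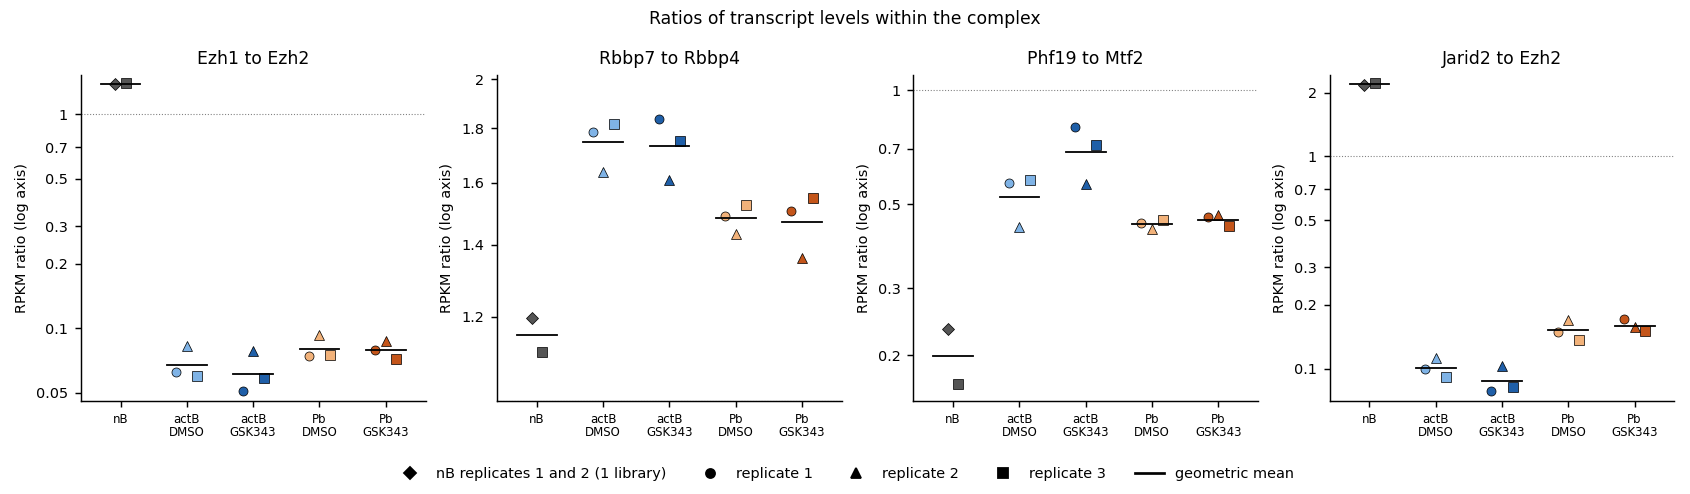
RPKM ratios within the complex in each of 14 libraries, on log axes. Symbols give the replicate number, lines the geometric mean of each group, and the dotted line a ratio of 1. *Ezh1* to *Ezh2* falls from 1.38 in nB to 0.0675 in actB with DMSO, and *Jarid2* to *Ezh2* from 2.19 to 0.101.

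As a set, the members changed between cell types in counts that stand beside a high background. From nB to actB with DMSO, 8 of 10 members rose and 2 fell, where 77.2% of all genes tested were called, 40.9% as higher and 36.3% as lower. Their median log2 fold change was 0.81, against 0.053 for all genes. For all 10 members the groups did not overlap, as for 83.4% of genes, and all 10 were called with the replicate number as a block, in a fit that called 81.6%. From actB to Pb with DMSO, 2 members (*Aebp2* and *Jarid2*) were higher, 6 were lower, and *Suz12* and *Ezh1* were not called, where 69.7% of all genes were called, 27.3% higher and 42.4% lower. The same number, 8, did not overlap (71.9% of genes) and was called with the block (76.1%). The median was -0.32, against -0.12 for all genes, and the changes of members from actB to Pb are to be read relative to this shift. With libraries scaled to a median log2 ratio of 0, the same 8 members were called in the same directions, *Ezh1* was at -0.012, and *Suz12* was called higher in Pb at 0.18 (adjusted p = 0.0178 from limma). From nB to Pb with DMSO, 7 members were higher, *Ezh1* and *Jarid2* were lower, and *Eed* was not called, where 80.6% of genes were called, 39.5% higher and 41.1% lower. The groups did not overlap for 9 members (86.9% of genes), and 9 were called with the block (84.7%). The comparisons share their nB, actB, or Pb libraries and are not independent of each other.

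The order of the members by RPKM differed between cell types. In nB it ran from *Rbbp7* over *Rbbp4*, *Suz12*, *Eed*, *Jarid2*, *Ezh1*, *Mtf2*, *Ezh2*, and *Aebp2* to *Phf19*, and only *Ezh2* (14.03 RPKM) and *Aebp2* (13.8 RPKM) overlapped among neighbours. In actB with DMSO, *Ezh2* had moved from rank 8 to rank 2, while *Jarid2* had gone from rank 5 to 9 and *Ezh1* from rank 6 to 10. *Suz12* and *Rbbp4*, and *Phf19* and *Jarid2*, were the neighbours whose ranges overlapped there. In Pb with DMSO, *Rbbp7* (95.5 RPKM) and *Suz12* (88.0 RPKM) overlapped at the top, *Ezh2* followed, and *Aebp2* (37.2 RPKM) stood beside *Eed* (37.0 RPKM). Such ranks depend on the deposited lengths, 8281 bases for *Aebp2* and 2060 for *Eed*. The longest coding transcripts of these hold 5940 and 2065 bases. *Ezh1* was the least abundant member in all 4 cultured groups.

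Other genes changed with culture, and their values stand beside those of the members. All 24 of a list of proliferation genes rose from nB to actB, with a median log2 fold change of 3.54, and their summed RPKM was 347 to 353 in nB, 1918 to 2360 in actB with DMSO, and 1947 to 2156 in Pb with DMSO. The nB libraries also held transcripts of other cell types. All 8 T and NK cell markers were lower in actB than in nB (28.4 to 30.4 RPKM summed in nB, 0.186 to 0.665 in actB with DMSO), as were 7 of the 8 myeloid markers tested (216 to 265 and 7.88 to 11.1 RPKM, over the 9 in the table) and both erythroid markers tested (80.9 to 298.8 and 8.78 to 12.4 RPKM, over the 3 in the table). *Lyz2*, a myeloid gene, averaged 166 RPKM in nB, and *S100a8* and *S100a9* were at 0 reads in all cultured libraries. In Pb with DMSO the summed myeloid markers stood at 113 to 350 RPKM, of which *Ly6c2*, a surface protein gene also known from plasma cells, averaged 192.1. The part of proliferation and of these cells in the differences of PRC2 subunits from nB was not tested.

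**Figure D4:**
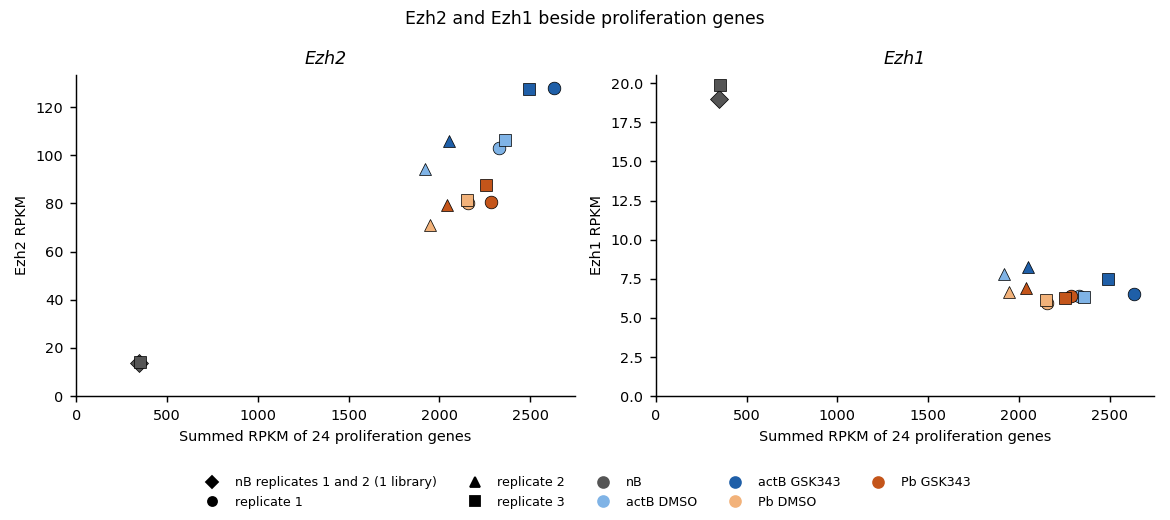
RPKM of *Ezh2* (left) and *Ezh1* (right) against the summed RPKM of 24 proliferation genes in each of 14 libraries, coloured by group with symbols for replicate numbers. The nB libraries lie at 347 and 353 summed RPKM and the cultured ones between 1918 and 2632, and within each cultured group replicate 2 has the lowest sum, the lowest *Ezh2*, and the highest *Ezh1*.

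Genes with a profile like that of the catalytic subunits were sought over all 14 libraries by Pearson's r of log2(RPKM + 0.25), which the distance of nB from the cultured libraries largely sets. The 5 genes most like *Ezh2* were *Arhgap19*, *Gen1*, *Melk*, *Fignl1*, and *Mcm7*, with r from 0.996 to 0.997. *Mcm7*, a subunit of the replicative helicase, stood at 29.3 RPKM in nB, 131.0 in actB, and 101.7 in Pb with DMSO. The 5 most like *Ezh1* were *Mylip*, *Lilr4b*, *Klf6*, *Suv420h1*, and *Zbtb4*, with r from 0.991 to 0.993. *Klf6*, a zinc finger transcription factor, stood at 129.7 RPKM in nB, 15.2 in actB, and 13.1 in Pb with DMSO. Among the members themselves, *Rbbp4* and *Rbbp7* had the highest r (0.984) and *Ezh1* and *Suz12* the lowest (-0.988) over the same libraries.

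GSK343 was compared with DMSO in each cell type to ask whether inhibition of the enzyme altered transcripts of its complex. In actB, without the replicate block, 0 of 10 members passed the threshold, where 10.4% of all genes did. An unadjusted p under 0.05 from limma was held by 1 of the 10 and by 2829 of the 11299 genes. edgeR on the recovered reads without the block, with either TMM or RLE factors, also called 0. With the replicate number as a block, limma called 1 of 10 (*Ezh2*), where it called 21.4% of all genes. The groups overlapped for all 10 members, and did not for 25.9% of all genes. The median log2 fold change of members was -0.0028, against 0.028 for all genes. The log2 fold changes of single members ran from -0.11 (*Mtf2*) to 0.27 (*Phf19*), with standard errors of 0.052 to 0.16 without the block. With the block the standard errors were smaller for the members, from 0.037 (*Eed*) to 0.10 (*Phf19*). The 95% intervals of all members together, from the fit without the block, reached from 0.833-fold to 1.54-fold.

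*Ezh2* came nearest to a call in actB. Its GSK343 libraries stood at 127.8, 106.1, and 127.3 RPKM (replicates 1 to 3), against 102.8, 94.3, and 106.5 with DMSO. Each was above the DMSO library of the same number, but GSK343 replicate 2 lay just under DMSO replicate 3, so that the groups overlapped. The log2 fold change was 0.25 (standard error 0.080, 95% interval 0.073 to 0.42), and limma gave an adjusted p of 0.0705. The replicate numbers pair the samples, and with the number as a block *Ezh2* passed the threshold (adjusted p = 0.0022 from limma), in a fit that called 21.4% of all genes. Without actB GSK343 replicate 2 it was also called (log2 fold change 0.34, adjusted p = 0.0144), and over all alternatives the adjusted p ranged from 0.0022 to 0.224. The summed RPKM of proliferation genes was 2050 to 2632 with GSK343 and 1918 to 2360 with DMSO, and of the 24 genes *E2f1* alone was called higher, at 0.22 (adjusted p = 0.0354). With GSK343 in actB 8.2% of all genes were higher and 2.16% lower. Of the plasmablast markers 2 were higher with GSK343 in actB (549 to 669 against 485 to 522 RPKM summed over 5), as were 2 myeloid markers (14.6 to 17.8 against 7.88 to 11.1 over 9), and 1 naive B cell marker was lower. The part of these in the values of *Ezh2* was not tested.

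Other members showed smaller or less certain differences in actB. *Phf19* stood at 17.2, 12.01, and 16.7 RPKM with GSK343 and at 14.004, 9.63, and 14.4 with DMSO. It was higher in 3 of 3 pairs, with overlapping groups and a log2 fold change of 0.27 (95% interval -0.086 to 0.63, adjusted p = 0.349 from limma). With the replicate block its adjusted p from limma was 0.0878. The ratio of *Phf19* to *Mtf2* was 0.566 to 0.800 with GSK343 and 0.436 to 0.580 with DMSO (exact permutation test, two-sided p = 0.3). It was higher in 3 of 3 pairs, by 0.49, 0.38, and 0.30 on the log2 scale, again with an exact paired permutation p at its minimum of 0.25. *Ezh1* stood at 6.505, 8.28, and 7.47 RPKM with GSK343, higher in 3 of 3 pairs but overlapping the DMSO libraries. Its log2 fold change was 0.11 (95% interval -0.096 to 0.32, adjusted p = 0.537 from limma, and 0.205 with the block). *Suz12* and *Mtf2* were lower in 3 of 3 pairs, at -0.093 (adjusted p = 0.389 from limma) and -0.11 (adjusted p = 0.322). With the replicate block the adjusted p from limma was 0.125 for *Suz12* and 0.0654 for *Mtf2*. edgeR with TMM factors and the block called *Mtf2* lower (adjusted p = 0.0160). *Eed*, *Rbbp4*, *Rbbp7*, *Jarid2*, and *Aebp2* had log2 fold changes between -0.029 and 0.035, and pairs that went both ways.

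In Pb, without the replicate block, 0 of 10 members passed the threshold with GSK343, where 12.9% of all genes did. An unadjusted p under 0.05 from limma was held by 2 of the 10 and by 3045 of the 11299 genes. edgeR with TMM or RLE factors and no block called 0 as well. With the replicate number as a block, limma called 1 of 10 (*Suz12*), where it called 24.6% of all genes. *Suz12* stood at 80.2, 76.1, and 83.3 RPKM with GSK343 and at 89.3, 87.1, and 87.6 with DMSO, and *Jarid2* at 13.8, 12.5, and 13.1 with GSK343 and at 11.97, 12.1, and 11.1 with DMSO. Neither gene overlapped between treatments, which was so for 34.1% of all genes. The log2 fold change of *Suz12* was -0.14 (95% interval -0.27 to -0.0073, adjusted p = 0.163 from limma), and with the replicate number as a block it was called lower (adjusted p = 0.0278), in a fit that called 24.6% of all genes. That of *Jarid2* was 0.16 (95% interval 0.029 to 0.29, adjusted p = 0.106), and 0.0678 with the block. *Ezh2* stood at 80.8, 79.4, and 87.5 RPKM with GSK343, against 80.3, 71.2, and 81.4 with DMSO. Its log2 fold change was 0.089 (95% interval -0.084 to 0.26, adjusted p = 0.531 from limma, and 0.139 with the block). The other 7 members lay between -0.089 (*Mtf2*) and 0.063 (*Ezh1*).

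The GSK343 libraries of Pb differed from those with DMSO in other respects too. Their labels name IL6, where the study's methods name IL5. If these labels hold, the drug and the cytokine cannot be told apart in Pb. With GSK343 in Pb 7.9% of all genes were higher and 5.0% lower. Of the 7 naive B cell markers 4 were lower with GSK343, with a summed RPKM of 130 to 180 against 219 to 242, and of the 5 plasmablast markers 1 was higher and 1 lower. The higher was *Sdc1*, which encodes CD138 and was used for sorting, at 55.3 RPKM against 29.7, and the lower was *Irf4*, a transcription factor of plasma cells, at 312.9 against 371.9. The part of these differences in the values of *Suz12* and *Jarid2* was not tested. The difference of the GSK343 effect between Pb and actB was tested with limma's interaction term. It passed the threshold for 0 of 10 members, and for 0.248% of all genes (0.0974% higher and 0.15% lower). An unadjusted p under 0.05 from limma was held by 0 of the 10 and by 1017 of the 11299 genes. With the block 0 members and 1.96% of all genes were called, and edgeR with TMM or RLE factors called 0 members. The largest such difference was that of *Phf19*, at -0.32 (standard error 0.23, adjusted p = 0.824).

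**Figure D5:**
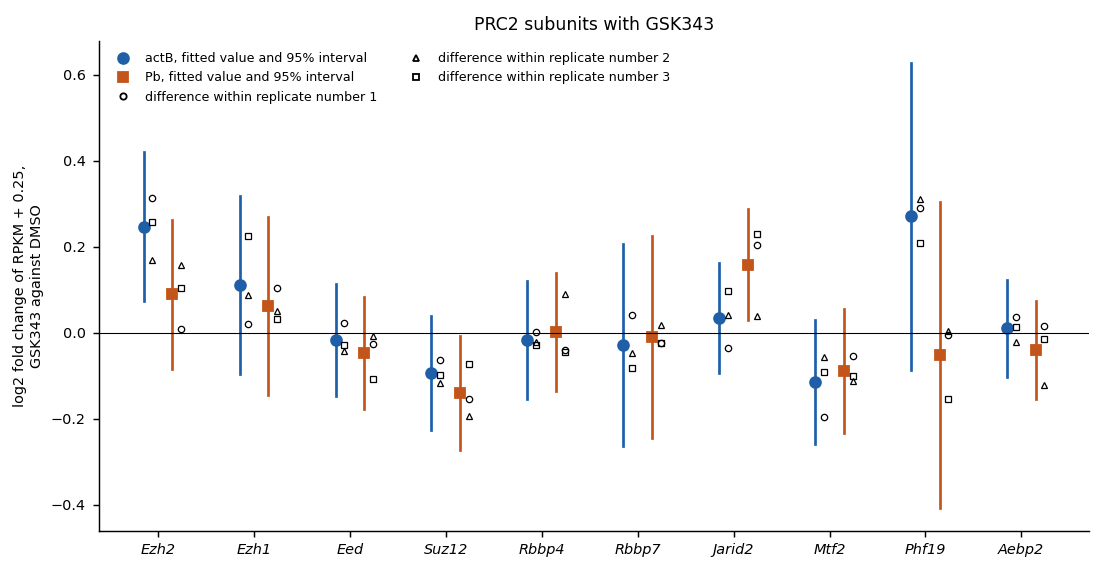
Log2 fold change of RPKM + 0.25 with GSK343 against DMSO for each PRC2 subunit in actB and Pb. Filled symbols and bars are the value and 95% interval from limma without the replicate block, and open symbols the difference within each replicate number. Without the block no member passed the adjusted p of 0.05, and the interval leaves out 0 for *Ezh2* in actB (0.073 to 0.42) and for *Suz12* and *Jarid2* in Pb. With the block, *Ezh2* in actB (adjusted p = 0.0022 from limma) and *Suz12* in Pb (adjusted p = 0.0278 from limma) passed.

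The position of the replicate 2 libraries ran through the members. In all 4 cultured groups, replicate 2 had the lowest value of *Ezh2*, *Eed*, *Suz12*, *Rbbp4*, *Rbbp7*, *Mtf2*, and *Phf19*, and the highest of *Ezh1* and *Aebp2*. It also had the lowest summed RPKM of proliferation genes in each. *Phf19* showed this most in actB, at 9.63 RPKM in replicate 2 with DMSO against 14.004 and 14.4, and *Ezh1* stood at 7.78 against 6.41 and 6.36. Without replicate 2 of all cultured groups, *Ezh2* was called higher with GSK343 in actB (log2 fold change 0.29, adjusted p = 0.0065 from limma) and *Jarid2* in Pb (0.22, adjusted p = 0.0439). What sets these libraries apart was not tested.

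Genes that act with or against PRC2 were examined from lists of general knowledge. Of the H3K27 demethylases, which remove the mark, *Kdm6b* fell from 20.1 ± 2.74 RPKM (SD, n = 2) in nB to 4.31 ± 0.238 in actB with DMSO (n = 3), a log2 fold change of -2.15 (adjusted p = 5.40e-10 from limma). It was lower with GSK343 in Pb, at 2.49 ± 0.133 against 3.62 ± 0.263 RPKM (log2 fold change -0.50, adjusted p = 0.00297). *Kdm6a* did not pass the threshold for actB against nB in limma, where edgeR with TMM factors called 2 of the 2 demethylases tested. In limma *Kdm6a* was higher in Pb than in actB (0.26, adjusted p = 0.00105), and edgeR with TMM factors called 1 of the 2 there. Among the other accessory genes of PRC2, 4 of which were tested, *Phf1*, the remaining Polycomb-like paralogue of *Mtf2* and *Phf19*, fell from 34.6 ± 2.42 RPKM in nB to 4.64 ± 0.213 in actB with DMSO (-2.83, adjusted p = 2.24e-10). *E130012A19Rik*, also named *Epop*, which encodes a PRC2.1 subunit, rose from 1.503 to 8.16 RPKM (2.28, adjusted p = 2.11e-07). *Lcorl*, whose locus encodes a further PRC2.1 subunit, was higher in Pb than in actB, at 6.02 against 2.84 RPKM (1.02, adjusted p = 3.59e-07). With GSK343, limma and edgeR with TMM factors called 0 of these 4 in actB and 0 in Pb, where limma called 10.4% and 12.9% of all genes. An unadjusted p under 0.05 from limma was held by 1 of the 4 in actB and 0 in Pb, and by 2829 and 3045 of the 11299 genes.

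PRC1 ubiquitinates histone H2A, and some of its forms read H3K27me3. Of 26 PRC1 genes tested, 5 were higher and 2 lower in actB with GSK343, and 4 were higher and 3 lower in Pb, against a background of 8.2% and 2.16% of all genes in actB and 7.9% and 5.0% in Pb. *Bmi1*, which stimulates the ubiquitin ligase, rose from 18.1 ± 0.876 to 28.7 ± 2.78 RPKM in actB (SD, n = 3, log2 fold change 0.65, adjusted p = 5.79e-04 from limma) and from 14.9 ± 1.46 to 21.5 ± 0.856 in Pb (0.52, adjusted p = 0.0017). *Scmh1* rose by 0.40 in actB (adjusted p = 0.00393) and by 0.44 in Pb (adjusted p = 0.0019). The median over the list was 0.054 in actB and -4.0e-04 in Pb. From nB to actB with DMSO 10 of the 26 rose and 12 fell, where 40.9% of all genes rose and 36.3% fell, and from actB to Pb 5 were higher and 17 lower, where 27.3% of all genes were higher and 42.4% lower. *Phc2*, a polyhomeotic subunit, was among the lower, at 7.01 RPKM in Pb with DMSO against 15.3 in actB with DMSO.

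RBBP4 and RBBP7 also belong to NuRD, SIN3, and the chromatin assembly factor CAF-1, of which 18 other genes were tested. From nB to actB with DMSO 9 rose and 6 fell, where 40.9% and 36.3% of all genes did. The rises were led by the CAF-1 genes *Chaf1a* (2.80 to 25.4 RPKM, log2 fold change 3.07, adjusted p = 2.03e-11 from limma) and *Chaf1b* (2.76 to 14.2 RPKM, 2.25, adjusted p = 6.23e-10). From actB to Pb 1 was higher and 13 were lower, where 27.3% and 42.4% of all genes were. The lower ones included the NuRD gene *Mta3* (10.9 to 2.42 RPKM, -2.06, adjusted p = 1.92e-09) and the deacetylase gene *Hdac1* (127.3 to 53.0 RPKM, -1.26, adjusted p = 1.14e-09). With GSK343, 2 of the 18 were lower in actB and 0 higher, where 2.16% of all genes were lower and 8.2% higher. These were *Sap30* (-0.30, adjusted p = 0.0314 from limma) and *Suds3* (-0.18, adjusted p = 0.0392) of SIN3. In Pb 0 of 18 were called by limma or edgeR with TMM factors, where limma called 12.9% of all genes. An unadjusted p under 0.05 from limma was held there by 1 of the 18 and by 3045 of the 11299 genes.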

How the data were processed

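RNA-seq was made from 15 libraries with a stranded poly(A) kit and paired-end sequencing. Per the labels and methods, the authors aligned reads with TopHat2 to mm9 and counted overlaps with the exons of each gene, and the deposited values are RPM. They are whole multiples of what 1 read is worth (100% within 0.0006 RPM), so reads were recovered, 19421830 to 26307413 per library. A count of 3 reads is 0.114 to 0.154 RPM. RPKM was computed here from the deposited gene lengths. Of 21761 rows, 92 without a symbol (at most 0.0905% of reads) were left out. The 11299 genes that reached an RPKM of 1 in 3 or more of the 15 columns were tested.

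The columns of nB replicates 1 and 2 were averaged as 1 sample, which leaves 14 libraries and 9 residual degrees of freedom. In fits with the block this sample was given replicate number 1, so blocked values against nB rest on that choice. All groups entered 1 limma fit (limma 3.58.1, R 4.3.3) of log2(RPKM + 0.25) with an intensity trend, two-sided, Benjamini-Hochberg adjusted over all tested genes, without a replicate block. edgeR 4.0.16 (quasi-likelihood) on the recovered reads was an alternative. Intervals are 95% limits from limma's moderated standard errors in the fit without the block, and so leave out the pairing. Ratios were compared by the exact permutation test, unpaired and within replicate numbers (scipy 1.17.1). Same-numbered cultured libraries deviated together (r of 0.158 to 0.713 over 18 pairs, against -0.603 to 0.370 over 36 pairs of different numbers), so the numbers were taken to pair the samples. Blocked values are given where they change a call, and for some other members with GSK343. The limma and edgeR steps were also run on simulated counts with known changes, which were larger than those of the members with GSK343. The simulated libraries had no replicate effect. Such a run cannot tell how the fits handle smaller changes or the replicate 2 libraries.

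All members are named, and from each other list the 2 genes with the largest called log2 fold change per comparison where a group mean reached 2 RPKM, and the 5 genes most correlated with *Ezh2* and with *Ezh1*. *Sdc1*, *Lyz2*, *S100a8*, *S100a9* and *Ly6c2* are named as markers, and *Irf4* as a marker called in Pb. Some genes that this rule names are not reported here. Members and lists were chosen with earlier results of these data known. Alternatives were other scalings, filters, pseudocounts and fits, the block, and leaving out libraries. Leaving out replicate 2 of all cultured groups, and edgeR with the block, were added after seeing the data. Sequences and gene models came from RefSeq and GENCODE vM1. Depth was taken as the reads assigned to genes.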

Additional observations from a re-analysis of the deposited data

How the results depend on the processing

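The members called between cell types kept their direction under every alternative. Calls changed for *Eed* in Pb against nB, called with quantile normalization (-0.13, adjusted p = 0.0445 from limma), for *Rbbp4* in the same comparison, lost with quantile normalization (adjusted p = 0.154), without the merged nB library (0.101) and without Pb DMSO replicate 3 (0.0522), and for *Suz12* in Pb against actB, called with median scaling (0.0178), edgeR RLE (0.0151), and edgeR TMM with the block (0.0188). *Ezh1* in Pb against actB was 0.010 with quantile normalization. Leaving out 1 library gave 8 to 9 members called in Pb against nB.

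With GSK343 in actB, the 0 members called became 1 with quantile normalization, with the replicate block, and without replicate 2 of all cultured groups, 2 with edgeR TMM and the block (*Ezh2* and *Mtf2*), and 0 to 1 with 1 library left out, the 1 being without actB GSK343 replicate 2. In Pb, 0 became 1 with the block and 1 without replicate 2 of all cultured groups, 2 with edgeR TMM and the block (*Suz12* and *Jarid2*), and 0 to 0 with 1 library left out. The block changed no other call of a member.

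Sign changes were confined to members that were not called. In actB with GSK343, quantile normalization gave 0.010 for *Eed*, 2.3e-04 for *Rbbp4*, and -0.013 for *Jarid2*, and *Aebp2* was -0.023 with median scaling, -0.021 with edgeR TMM, -0.025 with RLE, and -0.020 with TMM and the block. In Pb with GSK343, *Rbbp4* was -0.0034 with median scaling, -0.0056 with quantile normalization, -0.0080 with TMM, -0.0060 with RLE, -0.0062 with TMM and the block, and -0.042 without replicate 2 of all cultured groups, which gave 0.0011 for *Aebp2*. The difference between Pb and actB was, with quantile normalization and without replicate 2 in turn, -0.0059 and -0.028 for *Rbbp4* and -0.015 and -0.0038 for *Rbbp7*.

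With 1 library left out, log2 fold changes in actB with GSK343 ran from -0.062 to 0.037 for *Eed*, -0.073 to 0.043 for *Rbbp4*, -0.13 to 0.082 for *Rbbp7*, and -0.013 to 0.032 for *Aebp2*. In Pb they ran from -0.045 to 0.029 for *Rbbp4*, -0.081 to 0.047 for *Rbbp7*, and -0.081 to 0.019 for *Aebp2*. The differences between Pb and actB ran from -0.14 to 0.032 for *Ezh1*, -0.083 to 0.015 for *Eed*, -0.11 to 0.0035 for *Suz12*, -0.041 to 0.075 for *Rbbp4*, -0.092 to 0.12 for *Rbbp7*, -0.014 to 0.079 for *Mtf2*, and -0.092 to 0.0084 for *Aebp2*. Log2 ratio differences with GSK343 ran in actB from -0.30 to 0.013 for *Ezh1* to *Ezh2* and -0.058 to 0.039 for *Rbbp7* to *Rbbp4*, and in Pb from -0.092 to 0.084, from -0.050 to 0.042, and from -0.0014 to 0.16 for *Jarid2* to *Ezh2*.

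Over all genes, the 1170 called with GSK343 in actB became 386 with the compared groups alone, 2417 with the block, 2815 with edgeR TMM and the block, and 608 to 1363 with 1 library left out. The 1458 in Pb became 2780, 2884 (the same 2 blocked fits), and 690 to 1304. The 28 called for the difference became 18 with quantile normalization, 4 with the compared groups alone, 222 with the block, 48 with all 15 columns, 146 without replicate 2 of all cultured groups, 279 with edgeR TMM and the block, and 0 to 58 with 1 library left out. Causes of these changes were not tested. The precision is limited by n = 2 for nB and 3 otherwise, and by the spread between libraries. Distinct libraries of a group differed beyond sampling noise, with a chi-square per degree of freedom of at least 3.57. Counting error adds at most 5.74% at 304 to 10384 reads per member and library.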
